A study of Homo sapiens with 4 samples.

Results

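Protein kinase A (PKA) is the kinase through which most actions of cyclic AMP are carried out. Its resting form is a complex of a pair of regulatory subunits and a pair of catalytic subunits, and cyclic AMP bound to the regulatory subunits frees the catalytic subunits to phosphorylate their targets. Regulatory subunits fall into type I (RI), which holds the catalytic site with a pseudosubstrate, and type II (RII), which carries a serine there that the kinase itself can phosphorylate. Receptors coupled to Gs raise cyclic AMP and those coupled to Gi lower it, so PKA lies downstream of a large share of the receptors that are expressed in HEK293 cells for study.

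The family was taken as 7 genes of 17217 that could be named on the array: the catalytic subunit genes PRKACA, PRKACB and PRKACG and the regulatory subunit genes PRKAR1A, PRKAR1B, PRKAR2A and PRKAR2B. Their members were found by matching the RefSeq accession in each probe name, which gave 24 probes of 71998 in 8 transcript targets of 24000. A target is 1 RefSeq transcript, read by 3 probes of 60 bases. PRKACB had 2 targets, and each other subunit had 1. Probes are named here by the number that ends their name. The first PRKACB target was read by probes 3454, 3549 and 4145 and the second by probes 696, 711 and 1520. RefSeq now lists 3 curated transcripts for PRKACA, 30 for PRKACB and 8 for PRKAR1A, so most transcripts of these genes had no target of their own.

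HEK293 is a line of human embryonic kidney cells transformed with adenovirus DNA. All 4 samples were this 1 line, bought from a cell bank and grown without treatment in serum-containing medium, and each came from its own culture plate and RNA extraction. There was therefore 1 group of 4 replicates and no comparison between conditions. RNA was measured in bulk, so a low value from all cells and a high value from a few cells cannot be told apart. Of gene lists chosen for the line, 2 of 13 kidney markers, 5 of 8 neuronal markers, 6 of 8 epithelial or mesenchymal markers and 0 of 8 blood or endothelial markers were detected by the rule below, as were 20 of 20 reference genes and 52.7% of all named genes. Of the detected markers, NEFM (neuronal) and COL1A1 (mesenchymal) lay above the baseline on 2 of 4 arrays. No kidney marker lay above it on all 4, against 45.0% of all named genes. Limma called 1 of the kidney, 4 of the neuronal and 5 of the epithelial or mesenchymal markers, against 45.9% of all named genes.

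A level is the log2 intensity of a gene on 1 array. Detection followed the study's own rule. The baseline of an array was set at 2 SD over the mean of 10 seminal protein genes, thought to be silent in these cells. A gene's distance is its level minus that baseline, and a gene with a mean distance above 0 over the arrays was called detected. The baseline was 9.47, 9.94, 10.69 and 10.32 log2 units on replicates 1 to 4, so it was lowest on replicate 1 and highest on replicate 3. Of the controls, AFG2A and SPATA13 stood just under the baseline, at -0.13 and -0.38 log2 units, and AFG2A passed it on replicate 3, while the other 8 stood at -3.58 to -2.85. With AFG2A and SPATA13 left out, the mean baseline was 7.78 in place of 10.10 log2 units. Probes differ in affinity, and for that reason a larger distance does not mean more copies of 1 subunit's transcript than of another's.

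By this rule 6 of the 7 subunit genes were detected, 2 of the 3 catalytic and 4 of the 4 regulatory ones, while 52.7% of all named genes were detected. A one-sided moderated test of the distances with limma called the same number, 6 of 7, against 45.9% of all genes. The fit gave every gene the same standard error, so its p-values do not reflect a gene's own spread between arrays. Above the baseline on all 4 arrays were 5 of 7, against 45.0% of all genes. The median distance of the 7 genes was 1.33 log2 units, beside 0.26 for all genes.

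**Figure D1:**
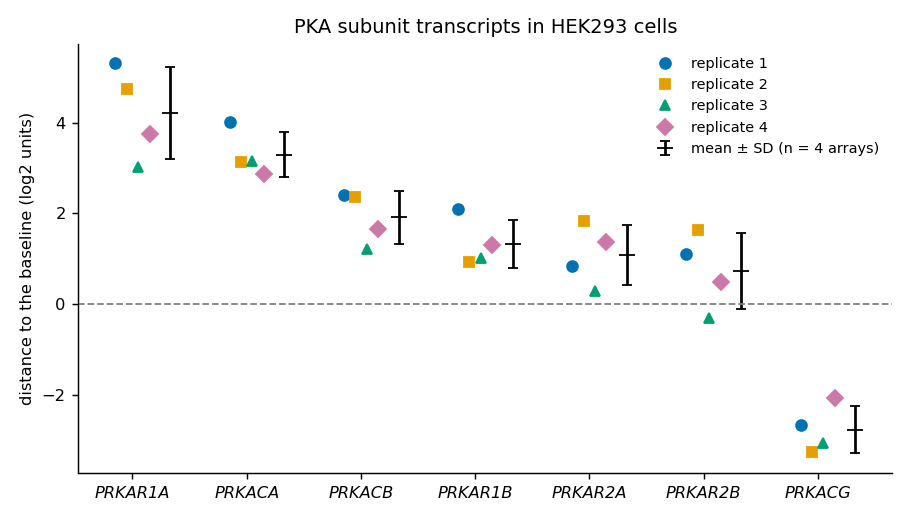
Distance of each PKA subunit gene to the baseline in log2 units (vertical axis), with 1 symbol per array and the mean ± SD over 4 arrays in black. The dashed line is the baseline. All arrays of PRKAR1A, PRKACA, PRKACB, PRKAR1B and PRKAR2A lie above it, PRKAR2B lies below it on replicate 3 at -0.30, and PRKACG lies below it on every array.

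Of the catalytic subunits, PRKACA encodes Cα, the form found in most tissues. Its levels were 13.48, 13.07, 13.84 and 13.19 log2 units on replicates 1 to 4. All 4 arrays lay far above their baselines, and the level was highest on replicate 3, where the baseline was highest too. The mean distance was 3.29 ± 0.50 log2 units (SD, n = 4, limma adjusted p = 3.0e-20). On single arrays PRKACA lay at the 81.1st to the 90.8th percentile of all named genes, a measure that uses neither the control genes nor any scaling between arrays.

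PRKACB encodes Cβ, of which several splice forms with different first exons are known. Its levels were 11.88, 12.30, 11.90 and 11.99 log2 units, with the smallest spread of the 7 genes (SD 0.20). The mean distance was 1.91 ± 0.58 log2 units (SD, n = 4, limma adjusted p = 8.2e-08). The even gene level was a mean of transcript targets that differed in their pattern over the arrays. The first target stood at 12.18, 12.04, 10.83 and 11.67 log2 units, lowest on replicate 3. That low value came mainly from probe 4145, while probe 3549 of the same target had its highest level on that array, at 12.02. The second target stood at 11.58, 12.57, 12.97 and 12.31 log2 units, highest on replicate 3. Their mean distances were 1.57 ± 1.10 and 2.25 ± 0.28 log2 units (SD, n = 4), with limma adjusted p of 1.4e-05 and 4.6e-10 in a fit over all targets.

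Single probes of PRKACB did not lie on 1 side of the baseline. Probe 4145 of the first target had levels of 13.19, 13.01, 9.38 and 12.71 log2 units. It was below the baseline on replicate 3 by 1.31 log2 units and above it by 2.39 to 3.72 on the other arrays. Probe 1520 of the second target lay below the baseline on all 4 arrays, by a mean of 2.81 ± 0.52 log2 units (SD, n = 4). The other probes of that target, 696 and 711, lay above it on all 4 arrays, at 3.10 ± 0.22 and 2.45 ± 0.51 (SD, n = 4). Their numbers lay only 15 apart. Which transcripts these probes match was not tested, because probe sequences were not used here.

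PRKACG encodes Cγ, an intronless copy of the catalytic subunit gene known from testis. Its levels were 6.80, 6.68, 7.64 and 8.26 log2 units, below the baseline on each array. The mean distance was -2.76 ± 0.53 log2 units (SD, n = 4), and all 3 of its probes lay below the baseline on all 4 arrays. The gene stood at -0.09 ± 0.37 SDs of the control genes from their mean (SD, n = 4), a mean that AFG2A and SPATA13 raise. Its mean distance lay just above those of the other controls, which stood at -3.58 to -2.85. It remained below the baseline under every alternative baseline, normalization and subset of arrays run.

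**Figure D2:**
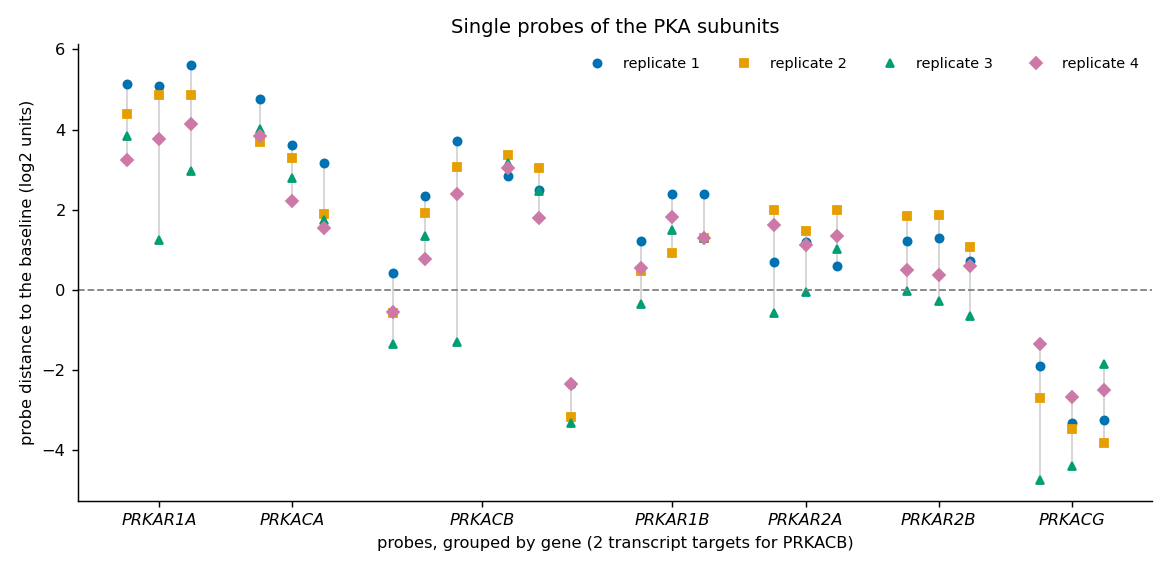
Distance to the baseline in log2 units (vertical axis) of each of the 24 probes, grouped by gene, with 1 symbol per array and a grey line from the lowest to the highest array. The dashed line is the baseline. All 3 probes of PRKACG and 1 probe of PRKACB lie below it on every array. On replicate 3 other probes of PRKACB, probes of PRKAR1B and PRKAR2A and all 3 of PRKAR2B lie below it too.

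Of the regulatory subunits, PRKAR1A encodes RIα, the widely expressed type I form, whose loss-of-function mutations cause Carney complex. Its levels were 14.77, 14.67, 13.72 and 14.08 log2 units, higher on replicates 1 and 2 than on replicates 3 and 4. Its mean distance came to 4.20 ± 1.01 log2 units (SD, n = 4, limma adjusted p = 5.4e-32). It was 5.30 on replicate 1 and 3.03 on replicate 3. All 3 probes lay above the baseline on all 4 arrays. Probe 2426 varied most, with levels of 14.57, 14.81, 11.93 and 14.07 log2 units, lowest on replicate 3. PRKAR1A was placed at the 89.7th to the 96.5th percentile of all named genes, the highest mean percentile in the family at 93.8 ± 3.15 (SD, n = 4).

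PRKAR1B encodes RIβ, the type I form known mainly from nervous tissue. Its levels were 11.56, 10.87, 11.70 and 11.63 log2 units, and replicate 2 lay apart below the other arrays. That put its mean distance at 1.33 ± 0.53 log2 units (SD, n = 4, limma adjusted p = 0.00019), above the baseline on all 4 arrays. Of its 3 probes, number 562 lay nearest to the baseline at 0.47 ± 0.65 log2 units (SD, n = 4) and below it on replicate 3.

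PRKAR2A encodes RIIα, a type II form that anchoring proteins hold at membranes and the cytoskeleton. Its levels were 10.32, 11.77, 10.98 and 11.70 log2 units, lower on replicates 1 and 3 than on replicates 2 and 4. The mean distance was 1.09 ± 0.66 log2 units (SD, n = 4, limma adjusted p = 0.0024), above the baseline on all 4 arrays. On replicate 3 the distance was 0.29. There probes 1119 and 1126 lay below the baseline, at -0.58 and -0.06, and probe 1130 above it, at 1.03. Without replicate 2 the distance was 0.84, with a limma adjusted p of 0.063. The numbers of its 3 probes lay only 4 to 11 apart. The sources used here do not state what the number means. Over all targets, probes whose numbers differed by 1 to 15 differed by a median of 0.34 log2 units. Those whose numbers differed by 60 or more differed by 0.87. The 3 probes may therefore read nearly the same stretch, though on replicate 3 their levels were 10.11, 10.63 and 11.72. Close numbers were also found for probes 696 and 711 of PRKACB, 15 apart, and 2573 and 2581 of PRKACA, 8 apart.

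PRKAR2B encodes RIIβ, the type II form best known from brain and fat. Its levels were 10.57, 11.57, 10.39 and 10.81 log2 units, highest on replicate 2 and lowest on replicate 3. Each of its 3 probes was below the baseline on replicate 3 and above it on the other arrays. The mean distance was 0.73 ± 0.83 log2 units (SD, n = 4). Its 95% confidence interval, from the standard error that limma gave every gene, ran from 0.04 to 1.42. The limma adjusted p was 0.042. This was the call nearest to the threshold in the family, and the distance was within the spread between arrays. The limma adjusted p was 0.342 without replicate 2, where the distance was 0.43, and 0.077 without replicate 4. It missed 0.05 without replicate 1 as well, at a distance of 0.61, and was 0.073 with a robust prior and an intensity trend in limma. In all, 12 of 21 alternatives kept the call, 8 lost it and 1 turned the direction.

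The order of the mean distances was PRKAR1A, PRKACA, PRKACB, PRKAR1B, PRKAR2A, PRKAR2B and PRKACG. The ranges over arrays did not overlap between PRKACA and PRKACB, nor between PRKAR2B and PRKACG. They overlapped for every other pair of neighbours. PRKAR1A lay above PRKACA on 3 of 4 arrays, PRKAR1B above PRKAR2A on 2 of 4 and PRKAR2A above PRKAR2B on 3 of 4, and this is an order of distances read by different probes, not of transcript amounts.

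**Figure D3:**
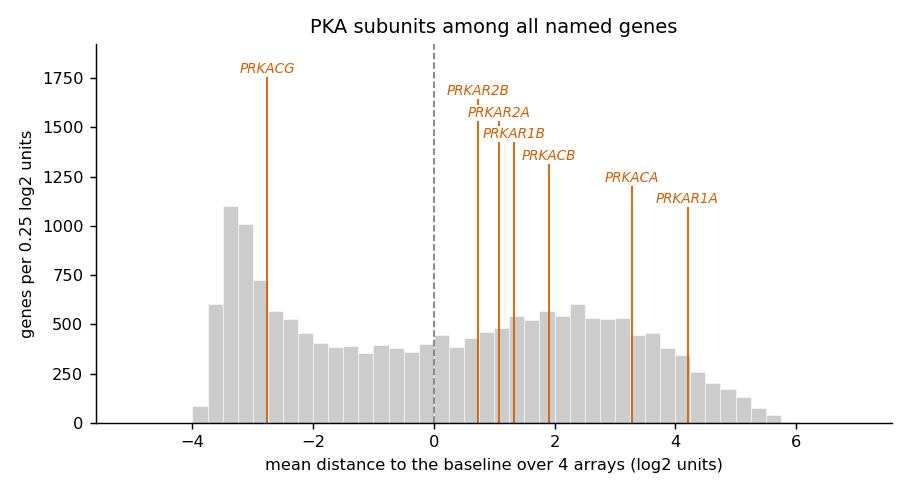
Histogram of the mean distance to the baseline over 4 arrays (horizontal axis, log2 units) for all 17217 named genes in bins of 0.25, with the 7 PKA subunit genes as labelled lines. The dashed line is the baseline. PRKACG at -2.76 lies among the low genes that form the left-hand peak, and the other subunits run from 0.73 to 4.20.

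Taken probe by probe, 19 of 24 had a mean distance above 0, against 47.6% of all probes of named genes. Above the baseline on all 4 arrays were 12 probes, on 1 to 3 arrays 8, and on none 4, counts for which no share over all probes was computed. Detection of a gene itself favours probes above the baseline. Of the 21 probes of the detected genes, 19 had a mean distance above 0, and the others were probes 3454 and 1520 of PRKACB. The cDNA was primed with oligo(dT), made double-stranded and labelled from random primers, so the arrays do not separate strands. RefSeq lists, among others, antisense RNA genes that overlap PRKAR1B (PRKAR1B-AS1 and PRKAR1B-AS2) and PRKAR2B (PRKAR2B-AS1), and a pseudogene named after PRKAR1A (PRKAR1AP1). Protein-coding genes overlap PRKACA (SMIM46), PRKAR1A (ARSG, WIPI1 and FAM20A) and PRKAR1B (DNAAF5), and a pseudogene overlaps PRKACB (TXN2P1). The share of any of these in the signals was not tested.

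Arrays did not shift all subunits alike. Over all named genes, themselves no independent replicates, Pearson's r was 0.971 between replicates 1 and 3 and 0.977 between replicates 2 and 4, and 0.949 to 0.959 for the other pairs of arrays. The labels give no batch. The distance of PRKAR2A was 0.57 log2 units on replicates 1 and 3 alone (limma adjusted p = 0.383) and 1.60 on replicates 2 and 4 alone, while PRKACA lay the other way, at 3.58 and 3.00. Replicates 1 and 2 shared 1 distribution of values and replicates 3 and 4 another. PRKAR1A stood at 5.02 on replicates 1 and 2 alone and at 3.39 on replicates 3 and 4 alone, and PRKAR2B at 1.37 and at 0.09 (limma adjusted p = 0.831). Over all genes the median distance of these pairs moved by 0.42 and by -0.39 log2 units, so part of each gap was common to all genes.

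The baseline is the control mean plus a multiple of the control SD. A subunit's place in such SDs therefore largely fixes by definition whether it is detected. In units of the SD of the control genes, PRKAR1A lay 5.24 ± 0.99 above their mean, PRKACA 4.52 ± 0.56, PRKACB 3.48 ± 0.52, PRKAR1B 3.04 ± 0.50, PRKAR2A 2.83 ± 0.50 and PRKAR2B 2.57 ± 0.63 (SD, n = 4 for each). With a baseline of 3 SD, 4 of 7 were detected, against 39.1% of all genes, and limma called 2, against 28.6% of all genes. The called genes were PRKAR1A at 2.89 and PRKACA at 1.97 log2 units. PRKACB at 0.60 (limma adjusted p = 0.187) and PRKAR1B at 0.02 were then detected without a call. PRKAR2A and PRKAR2B fell below the baseline, to -0.23 and -0.59. Every lower baseline run gave 6 of 7 by each measure, while 64.3% to 74.0% of all genes were then detected and 58.9% to 68.6% called. Without AFG2A and SPATA13 among the controls, the lowest of these, PRKAR2B stood at 3.06 and PRKACG at -0.43 log2 units.

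**Figure D4:**
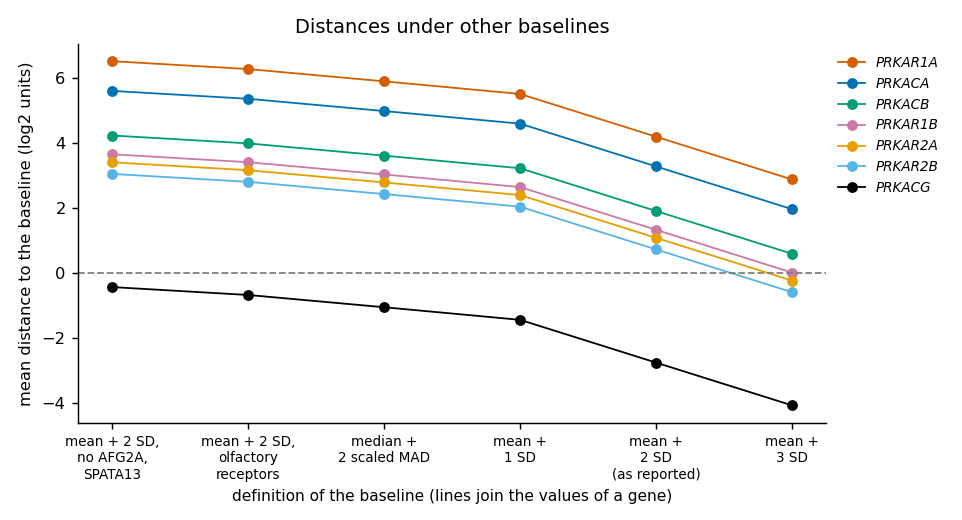
Mean distance over 4 arrays in log2 units (vertical axis) of each PKA subunit gene under 6 definitions of the baseline (horizontal axis, from the lowest baseline to the highest), where lines join the values of 1 gene. The dashed line is the baseline. With 3 SD of the control genes PRKAR2A and PRKAR2B lie below it, and PRKACG lies below it under every definition.

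Cyclic AMP also acts on genes through CREB, a PKA target that binds the cyclic AMP response element, TGACGTCA, and less strongly its core, CGTCA or TGACG. The stretches before the subunits' transcription starts are shown because these genes lie in the pathway that the element serves. In the 250 bases before each start in a RefSeq promoter table of build GRCh38.p14, 20 starts were listed for 6 of the subunit genes, PRKACG having no entry. The full element was found before 1 of the 20 starts, a PRKAR1A start, and before 1.65% of all 35116 starts in the table. A core without the full element was found on either strand before 4 of the 20, beside 19.6% of all starts. The stretches below run 5′ to 3′ on the gene's strand, with the element in capitals, from chr17:68512361-68512408 (plus strand), chr19:14117787-14117831 (minus strand), chr1:84077929-84077973 (plus strand) and chr7:713083-713127 (minus strand).
PRKAR1A: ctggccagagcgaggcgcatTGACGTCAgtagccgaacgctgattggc
PRKACA: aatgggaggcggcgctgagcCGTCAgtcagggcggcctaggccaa
PRKACB: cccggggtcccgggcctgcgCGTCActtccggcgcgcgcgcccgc
PRKAR1B: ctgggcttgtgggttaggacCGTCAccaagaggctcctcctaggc
In PRKAR1A and PRKACA the element began 49 bases before the start, in PRKACB 130 and in PRKAR1B 167 bases before it. The remaining core lay 250 bases before another PRKAR1A start. The first listed PRKACB start had 37 CG dinucleotides in its 250 bases and the 4 starts inside the gene had 0 to 5, beside a median of 11 over all starts. A match of letters is a description and shows no binding, and the share of starts with a core was close to that of all starts.

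The proteins that PKA works with were described from lists of 92 measured genes in all. Of these 53 (57.6%) were detected and limma called 43, with a median distance of 0.50 log2 units. The share lay near the 52.7% of all named genes. Over all named genes limma called 45.9%, and the median distance was 0.26 log2 units. With AFG2A and SPATA13 left out of the controls, 76 of the 92 were detected and 69 called, against 74.0% and 68.6% of all genes. Among the inhibitor peptides, small proteins that block the catalytic site, 2 of 3 were detected and limma called 1. PKIB stood at 2.37 ± 1.25 log2 units, PKIA at 0.63 ± 0.59 (limma adjusted p = 0.076) and PKIG at -0.83 ± 0.58 (SD, n = 4 for each), though PKIG lay above each lower baseline run. PKIB was above the baseline by 3.61 on replicate 1 and by 0.92 on replicate 3.

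A-kinase anchoring proteins tie regulatory subunits to places in the cell. Of 26 on the list 18 were detected and limma called 15, with a median distance of 1.59 log2 units. Of all named genes 52.7% were detected and 45.9% called, with a median of 0.26. Those that stood highest were EZR (ezrin, which links membrane to actin) at 5.14 ± 0.51, WASF1 (an actin regulator) at 4.26 ± 0.74, AKAP12 (gravin) at 3.68 ± 0.64 and AKAP8, a nuclear anchor, at 3.23 ± 0.64 (SD, n = 4 for each). Those that stood lowest were SPHKAP, which binds type I subunits, at -3.74 ± 0.55 and AKAP4, of the sperm tail, at -2.65 ± 0.57 (SD, n = 4 for each).

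Other proteins that bind cyclic AMP offer it routes that bypass PKA. Of 15 such genes 2 were detected, and both were called by limma. POPDC1, a membrane protein of the Popeye family, stood at 2.20 ± 0.72 log2 units (SD, n = 4) and RAPGEF4, the exchange factor EPAC2, at 1.18 ± 0.65 (SD, n = 4). RAPGEF3, the exchange factor EPAC1, did not reach the baseline on any array (-2.90 ± 1.05, SD, n = 4). The median of the list was -2.35 log2 units, beside 0.26 for all named genes, of which 52.7% were detected and 45.9% called. Among 4 related kinases 2 were detected and limma called 1, with a median distance of -0.97 log2 units. PDPK1, which phosphorylates the activation loop of PKA, stood at 1.55 ± 1.10 (SD, n = 4). PRKG1 stood at 0.02 ± 0.63, above the baseline on 2 of 4 arrays, and PRKG2 at -2.35 ± 0.27 (SD, n = 4 for each). PRKX, an X-linked relative of the catalytic subunits, stood at -1.96 ± 1.32 (SD, n = 4). PRKX lay above the baseline from olfactory receptor genes and that without AFG2A and SPATA13.

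Of the nuclear proteins through which PKA acts on genes, 8 of 8 were detected and limma called 7, with a median distance of 2.23 log2 units. Over all named genes 52.7% were detected and 45.9% called, with a median of 0.26. The coactivator CRTC2 stood at 3.78 ± 0.50, CRTC3 at 2.32 ± 0.63 and CRTC1 at 2.14 ± 0.83 (SD, n = 4 for each). The factors ATF1 and CREB1 stood at 2.85 ± 0.51 and 1.66 ± 0.71, and the acetyltransferases EP300 and CREBBP at 2.95 ± 0.72 and 1.35 ± 0.93 (SD, n = 4 for each). With the median of log2 probe values CRTC1 stood at 0.33 and lost its call (limma adjusted p = 0.415). CREM was above the baseline on 2 of 4 arrays, at 0.27 ± 0.55 (SD, n = 4, limma adjusted p = 0.442). Of 11 genes that cyclic AMP is known to induce, 6 were detected and limma called 3. Their median distance was 0.05 log2 units. Above the baseline on all 4 arrays were 2 of the 11, against 45.0% of all named genes. DUSP1, a phosphatase of MAP kinases, stood at 3.06 ± 0.74 and the nuclear receptor NR4A2 at 1.34 ± 0.87 (SD, n = 4 for each). NR4A2 lost its call with the mean of log2 probe values, at 0.59 (limma adjusted p = 0.110).

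A list of phosphatase genes also held PPP1R1A, PPP1R1B and PPP1R2, which encode inhibitors of the phosphatase PP1. Of its 13 genes 11 were detected and 10 called, with a median distance of 2.64 log2 units. All named genes gave 52.7% detected, 45.9% called and a median of 0.26. The phosphatase subunits alone gave 9 of 10 detected and called, and the inhibitors 2 of 3 detected and 1 called. Highest were PPP2R5D, a PP2A regulatory subunit that PKA phosphorylates, at 4.85 ± 0.65, the PP1 catalytic subunits PPP1CA at 4.76 ± 0.62 and PPP1CC at 4.23 ± 1.11, and the PP2A catalytic subunit PPP2CA at 3.89 ± 0.63 (SD, n = 4 for each). PPP2CA stood at 2.59 with the mean and at 1.36 with the median of log2 probe values. The median distance of 12 substrates of the kinase, many of them from heart, muscle or fat, was -0.57 log2 units. Of the 12, 4 were detected and called. These were KDELR1 at 5.35 log2 units, the phosphorylase kinase subunit PHKB at 3.83, the actin regulator VASP at 2.42 and glycogen synthase GYS1 at 2.39.

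**Figure D5:**
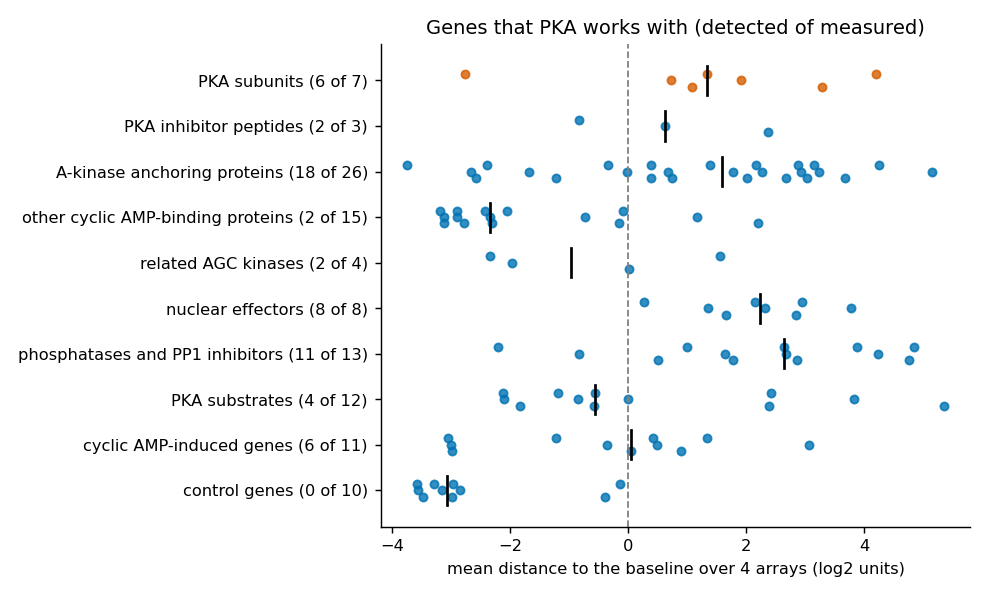
Mean distance to the baseline over 4 arrays (horizontal axis, log2 units) of each gene in the PKA subunit list, the 8 pathway lists and the control genes, with 1 point per gene and the list median as a black bar. The dashed line is the baseline, and the number detected of those measured follows each list name. Nuclear effectors lie above the baseline in 8 of 8 cases, and 13 of 15 other cyclic AMP-binding proteins lie below it. Of all named genes 52.7% lie above it.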

How the data were processed

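RNA of 4 HEK293 cultures was labelled with Cy3 and hybridised to NimbleGen arrays designed on the HG18 gene catalogue. The authors deposited log2 probe intensities. Their processing notes name RMA with no version, and background correction is not given in the sources used here. Sorted values differed by no more than 0.01 at 99.97% of ranks in replicates 1 and 2 and 99.99% in replicates 3 and 4, and at 1.23% to 1.25% of ranks between these pairs. Replicates were separate cultures, and their number limits the precision. The p-values measure the spread between them as limma pooled it over all genes, not the spread of a single gene. They do not cover the error of a baseline set from 10 control genes.

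Here the linear values of a target's probes were averaged before the log2 step, and targets of 1 gene were averaged after it. Probe accessions, less their versions, were looked up in a RefSeq gene table (GRCh38.p14), which named 19125 targets. BVES was matched under its current symbol POPDC1, and the control gene PYY2, 1 of 11 listed, was not matched. The one-sided test was limma's (version 3.58, R 4.3), adjusted over 17217 genes by Benjamini-Hochberg with a threshold of 0.05. Its prior made the standard error 0.351 log2 units for every gene, and all genes of an array move together with its baseline, so the genes' tests are not independent. With 4 arrays the smallest p of an exact one-sided sign-flip test is 0.0625.

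The members and lists were chosen with earlier results of these data known. The naming rule allowed the 7 subunits, the control genes, every gene of lists of 8 or fewer, and in longer lists the 4 highest, the 2 nearest the baseline and the 2 lowest. RAPGEF3 and PPP1R2 fall outside it and were named after their values were seen. In the longer lists, genes nearest the baseline are given by count only. Alternatives covered control genes, baseline height, probe and target summaries, normalization, arrays left out, a filter on dim genes and the limma prior. Those for the count of probes were chosen after seeing the data.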

Additional observations from a re-analysis of the deposited data

Results flagged for a closer look

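Of 40 sets of 4 array values of the subunits looked at (gene distances and levels, targets and single probes, which share data), 4 had an outlying array. The measure was the gap to the nearest array over the whole range, set against Dixon's 95% critical value, which about 1 in 20 sets pass by chance. The level of PRKAR1B was 10.87 on replicate 2, while the other arrays ran from 11.56 to 11.70 (gap over range 0.832). Probe 4145 of PRKACB was at 9.38 on replicate 3, below the 12.71 to 13.19 seen elsewhere (0.874). Probe 1130 of PRKAR2A was at 10.05 on replicate 1, below 11.67 to 11.93 elsewhere (0.862). Probe 2593 of PRKAR2B was at 11.78 on replicate 2, above 10.65 to 10.82 elsewhere (0.853). The cause was not tested for any of them.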

How the results depend on the processing

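The baseline mattered most, and the choice of control genes moved it furthest. Without AFG2A and SPATA13 it was 7.78 log2 units, the median distance of all genes moved by 2.33, limma called 11803 genes against 7904, and of the pathway genes 76 were detected and 69 called against 53 and 43. With olfactory receptor controls these were 8.02, 2.08, 11407, 72 and 68. With 3 SD the baseline was 11.42 log2 units against 10.10, the median moved by -1.32, limma called 4922 genes, and of the subunits limma called 2, 2 lay above the baseline on all arrays and 12 of their probes had a mean above it. Distances that changed sign with 3 SD were PRKAR2A (-0.23), PRKAR2B (-0.59), PKIA (-0.68), RAPGEF4 (-0.14) and CREM (-1.05). PKIG turned positive with 1 SD (0.49), with the median and scaled median absolute deviation (0.87), with olfactory receptor genes as controls (1.25), without AFG2A and SPATA13 (1.49) and with the highest target of a gene (0.16). PRKX did so with olfactory receptor controls (0.13) and without AFG2A and SPATA13 (0.37). CREM turned negative with the mean (-0.56) or median (-1.29) of log2 probe values, with the lowest target (-0.59) and on replicates 3 and 4 alone (-0.14). PKIA and CREM gained calls with 1 SD, with the median and scaled median absolute deviation, with olfactory receptor controls and without AFG2A and SPATA13. PKIA was also called without replicate 3 (limma adjusted p = 0.034) and on replicates 1 and 2 alone (0.014). With the highest target CREM was called at 1.49 (limma adjusted p = 4.1e-05). Calls lost with 3 SD were those of PRKACB, PRKAR1B, PDPK1, CRTC1, CREB1, CREBBP and NR4A2, and on replicates 3 and 4 alone those of PRKAR2A, PRKAR2B, RAPGEF4, PDPK1, CREBBP and NR4A2. Replicates 1 and 3 alone lost PRKAR2A, PRKAR2B and RAPGEF4. CRTC1 lost its call with the median and NR4A2 with the mean of log2 probe values. PRKAR2B lost its own under quantile normalization of all arrays (limma adjusted p = 0.062) and with the highest target of a gene (0.057). The median percentile of the subunits on an array, 63.9 on average, was 67.7 with the median of log2 probe values. The cause was not tested beyond the changed setting itself. Leaving out 1 array gave 4 to 6 subunits called by limma and 6 detected. Over the alternatives run, PRKACA and PRKAR1A kept their direction and side of the threshold in all 21, and PRKACG in each of the 20 that included it. PRKACB and PRKAR1B kept theirs in 20 of 21 each, PRKAR2A in 17 and PRKAR2B in 12 of 21. The limma adjusted p of PRKAR2A reached 0.383 and that of PRKAR2B 0.831 where the distance stayed above 0. The other 95 values that answer a comparison stayed within 1.5 times (counts) or 1 SD (percentile).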
